A study of Mus musculus with 4 samples.

Results

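Paired protein-coding gene ends were all places on mouse chromosomes 1 to 19 where the facing ends of neighbouring protein-coding genes lay at most 1000 bp apart without overlapping. The RefSeq table for mm10 held 1967 such pairs, among 41322 ends of 20661 protein-coding genes on these chromosomes. A pair's region was the gap between both genes plus 500 bp on each side, with a median gap of 250 bp (interquartile range 90 to 571 bp, range 0 to 999 bp). The 1967 pairs held 3558 distinct genes, 376 genes belonged to 2 pairs, and 10 regions overlapped the next, so neighbouring pairs can share a peak. The comparison class was 20618 single gene ends of 13803 genes, each over 5 kb from any other gene and read in a window of 1250 bp, the median width of the paired regions. Strand was found in the RefSeq promoter table for 16456 genes (79.6%). By strand, 552 pairs were head-to-head (both transcription starts face the gap), 435 were head-to-tail (a start faces a 3′ end) and 417 were tail-to-tail (both 3′ ends face the gap). The other 563 pairs had at least 1 gene with no strand in the table.

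The measurements were CUT&Tag peak lists for Ruvbl2, an assay that tethers a transposase to an antibody-bound protein so that DNA nearby is cut and tagged. HSC replicates 1 and 2 were haematopoietic stem cells, sorted as CD48-CD150+LSK from the marrow of Nup214fl/+ mice, which carry 1 floxed Nup214 allele with no Cre named in the labels. LSC replicates 1 and 2 were leukaemia stem cells, sorted as Lin-Sca-1-c-Kit+ cells that were also CD16/32+CD34+, from Nup214fl/+ mice whose leukaemia was driven by the MLL-AF9 fusion oncogene. That LSC gate is also the one used for normal granulocyte-monocyte progenitors. The labels give no age or sex of the mice and do not say whether the replicates came from separate animals, so the spread between them may be technical. Groups come from the titles, since the LSC libraries too carry the cell type label of haematopoietic stem cells.

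Several facts touch every result. The labels name no control library such as IgG. The protocol names an anti-rabbit secondary antibody, and the host of the Ruvbl2 antibody is not given in the sources used here; how far the peaks depend on that antibody was not tested. The libraries held 161655 to 286107 deposited peaks, and read depth is not given in the files. Peak names followed 1 scheme in both replicate 1 libraries and a different scheme in both replicate 2 libraries, and the replicate numbers separated the libraries more than the cell types did. Within 1000 bp of either end, none of 8 HSC marker genes had a listed peak in any library, and 2, 4, 4 and 3 of 8 genes of the LSC gate did (HSC replicates 1 and 2, then LSC replicates 1 and 2, the order kept throughout). Of 10 genes of other blood and endothelial cells, 0, 1, 0 and 2 had a listed peak. Kit was in both the HSC and the LSC gate set. The share of all genes with a listed peak in this window is not given here, so these small counts do not set the sets apart. A peak is not a measure of expression, so these markers do not check the sorted cells.

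Where both starts face the gap, the pair has a bidirectional promoter: a stretch of open, usually CpG-rich DNA from which RNA polymerase II departs in both directions, often serving housekeeping genes of DNA repair, mitochondria and translation. Tail-to-tail pairs hold the ends of transcription units and no annotated promoter of their own. Ruvbl2 is an AAA+ ATPase that forms rings with Ruvbl1. Chromatin remodellers of the INO80, SRCAP and TIP60/p400 kinds, which contain these rings, act on the nucleosomes flanking promoters; the rings are also in the R2TP chaperone complex.

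To show what the gaps look like, 10 head-to-head gaps are printed with 20 bp of each gene, from the RefSeq promoter sequences (GRCm38.p6, the coordinates of mm10). The plus strand is given 5′ to 3′, and capitals mark matches on either strand to a searched motif. The search covered 8 motifs: the Sp/Klf box with the letters GGGCGG, the CCAAT box named for its letters, and the Ets site with CCGGAAGT. The Nrf1 site was searched as GCGC on both sides of 2 free bases. The Yy1 site was AAGATGGCG and the TATA box was TATAAA. The E-box of Myc-type factors was searched as CACGTG, and the CRE, the cyclic AMP response element, as TGACGTCA. No motif's letters contain those of another. A match describes the letters only and is not evidence of binding. The first 7 gaps belong to pairs with a peak among the 20000 strongest of every library. They are chr1:93478898-93479000, chr9:22002953-22003007, chr9:4309598-4309762, chr17:56717680-56717781, chr2:132253161-132253357, chr17:33955646-33955798 and chr13:22042930-22043217, in the order printed.
Hdlbp/Septin2: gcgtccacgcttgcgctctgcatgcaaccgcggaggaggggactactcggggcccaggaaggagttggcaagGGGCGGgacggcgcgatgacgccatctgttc
Ccdc151/Prkcsh: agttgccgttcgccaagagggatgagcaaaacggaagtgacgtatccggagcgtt
Aasdhppt/Kbtbd3: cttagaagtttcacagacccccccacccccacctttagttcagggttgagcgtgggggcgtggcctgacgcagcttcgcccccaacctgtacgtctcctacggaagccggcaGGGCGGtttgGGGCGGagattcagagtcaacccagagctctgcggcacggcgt
Vmac/Ndufa11: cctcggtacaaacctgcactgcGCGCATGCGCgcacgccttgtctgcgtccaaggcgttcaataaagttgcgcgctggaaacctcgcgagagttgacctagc
Pcna/Cds2: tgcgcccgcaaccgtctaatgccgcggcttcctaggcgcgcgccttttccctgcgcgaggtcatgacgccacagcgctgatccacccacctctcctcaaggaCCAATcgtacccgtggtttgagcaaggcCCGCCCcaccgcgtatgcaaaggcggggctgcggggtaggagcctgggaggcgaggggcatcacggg
Rps18/Vps52: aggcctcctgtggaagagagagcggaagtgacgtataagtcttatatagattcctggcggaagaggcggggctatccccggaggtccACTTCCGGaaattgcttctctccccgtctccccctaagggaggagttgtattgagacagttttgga
H2ac11/H2bc11: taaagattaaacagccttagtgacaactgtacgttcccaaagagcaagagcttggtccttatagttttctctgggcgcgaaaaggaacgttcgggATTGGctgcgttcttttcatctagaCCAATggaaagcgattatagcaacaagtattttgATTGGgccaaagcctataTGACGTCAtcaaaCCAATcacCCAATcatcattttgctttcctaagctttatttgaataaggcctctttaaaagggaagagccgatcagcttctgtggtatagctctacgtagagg
The next gap is that of Atm/Npat (chr9:53536809-53536908), a textbook bidirectional promoter whose strong peaks were in replicate 2 of both cell types only.
Atm/Npat: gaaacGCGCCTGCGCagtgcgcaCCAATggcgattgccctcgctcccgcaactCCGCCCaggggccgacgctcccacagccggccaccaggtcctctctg
The last gaps belong to head-to-head pairs with no peak of any strength in any library, taken from those with gaps nearest the head-to-head median. They are chr15:85131938-85132079, between genes of meiotic cohesin and of ciliary microtubules, and chr9:86571859-86572007, beside the gene of a sugar phosphate mutase.
Smc1b/Ribc2: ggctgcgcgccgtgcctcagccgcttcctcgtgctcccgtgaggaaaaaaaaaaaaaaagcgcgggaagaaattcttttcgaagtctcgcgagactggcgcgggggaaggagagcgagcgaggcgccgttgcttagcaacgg
Pgm3/Rwdd2a: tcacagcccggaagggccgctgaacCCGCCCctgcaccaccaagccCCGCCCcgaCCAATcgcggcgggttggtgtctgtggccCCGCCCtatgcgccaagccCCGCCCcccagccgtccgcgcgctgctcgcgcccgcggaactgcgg
The gaps with the same peak status did not share 1 motif. Peak status was read over the gap plus 500 bp on each side, so a peak need not cover the printed bases. The strongest peak lay outside them at Aasdhppt/Kbtbd3 in LSC replicate 1 and at Vmac/Ndufa11 in HSC replicate 1. Ccdc151/Prkcsh had strong peaks in every library with no match in its 55 printed bases, while Pgm3/Rwdd2a held 4 Sp/Klf boxes and a CCAAT box, had 76.5% GC, and had no peak. The histone gap H2ac11/H2bc11 stood apart with 5 CCAAT boxes, a CRE and the lowest GC content of the 10 printed, 42%.

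The first question was whether paired ends carry a peak more often than single ends. They did in each of the 4 libraries. A region was called listed when at least 1 bp of it was covered by 1 of the 20000 peaks with the largest −log10 p of its library. Of the 1967 pairs, 223 (11.3%), 677 (34.4%), 247 (12.6%) and 660 (33.6%) were listed, against 3.17%, 7.93%, 3.32% and 8.4% of single ends. Over all protein-coding gene ends the shares were 4.85%, 13.2%, 5% and 13.3%. The paired share was thus 3.57, 4.34, 3.78 and 3.99 times the single share, a similar ratio in every library, although the shares were far higher in both replicate 2 libraries than in both replicate 1 libraries. The mean difference was 17.3 percentage points (SD 9.91, n = 4 libraries, higher in 4 of 4; two-sided exact sign-flip permutation over libraries, p = 0.13, the smallest that 4 libraries can give). With all deposited peaks, 30.1%, 63.7%, 40.2% and 58.2% of pairs had a peak against 14.5%, 30.2%, 19.2% and 25.5% of single ends, a mean difference of 25.6 points (SD 8.83, n = 4, exact p = 0.13). A paired region holds 2 ends and a single window holds 1. If 2 single ends are combined arithmetically as independent, 6.24%, 15.2%, 6.53% and 16.1% of such couples would hold a listed peak, still below the share of pairs in each library. With all peaks the same arithmetic gave 27.0%, 51.3%, 34.7% and 44.5%, much nearer to the 30.1%, 63.7%, 40.2% and 58.2% of pairs and nearest in HSC replicate 1.

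Orientation separated the pairs. Head-to-head pairs were listed in 116 (21.0%), 324 (58.7%), 116 (21.0%) and 314 (56.9%) of 552 regions, against 4.82%, 14.4%, 5.39% and 15.2% of 8217 single starts. Their share was 4.36, 4.08, 3.90 and 3.74 times that of single starts, with a mean difference of 29.5 points (SD 15.7, n = 4, higher in 4 of 4, exact sign-flip p = 0.13). The arithmetic value for 2 independent single starts was 9.41%, 26.7%, 10.5% and 28.1%, less than the head-to-head share in every library. With all peaks, 40.8%, 81.3%, 49.3% and 79.9% of head-to-head pairs had a peak, against 17.6%, 38.5%, 22.7% and 34.8% of single starts.

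Head-to-tail pairs, with 1 start in the region, lay in between. They were listed in 10.6%, 33.3%, 11.0% and 34.0% of 435 regions, 2.19, 2.32, 2.05 and 2.23 times the share of single starts. Their regions were wider, with a median of 1449 bp against the 1250 bp of single windows, and also hold a 3′ end. A matched width was not tested for this class. Tail-to-tail pairs were listed in 1.68%, 7.19%, 3.84% and 6.71% of 417 regions, against 1.62%, 2%, 1.51% and 1.8% of 8207 single 3′ ends. Head-to-head exceeded tail-to-tail by 34.5 points on average (SD 18.8, n = 4, higher in 4 of 4, exact sign-flip p = 0.13). Tail-to-tail exceeded single 3′ ends by 3.12 points (SD 2.42, n = 4, exact p = 0.13), but in HSC replicate 1 by only 0.0581 points. The peak's summit, its position of highest pileup, lay outside the region in 1 of 7, 22 of 30, 2 of 16 and 9 of 28 listed tail-to-tail pairs. With the summit required inside for both classes, the difference was 1.77 points (exact sign-flip p = 0.13). Tail-to-tail regions were also wider, with a median of 1381 bp against the 1250 bp of single windows. Without histone genes, an alternative added after the data were seen, the tail-to-tail difference was 2.98 points with an exact p of 0.25. In 402 tail-to-tail regions that held no other RefSeq gene and no start, 0.995%, 6.72%, 3.73% and 6.22% were listed. Their difference from single 3′ ends was 2.68 points (exact p = 0.25), with HSC replicate 1 below its single 3′ ends. With gaps of at most 500 bp it was 3.70 points (exact p = 0.25). For 2 single 3′ ends combined arithmetically, the listed share was 3.21%, 3.96%, 3.00% and 3.57%, above the tail-to-tail share in HSC replicate 1 and below it in the other libraries. With all peaks, tail-to-tail pairs had a peak in 20.1%, 43.4%, 27.3% and 32.1% of regions against 12%, 22.7%, 15.8% and 16.8% of single 3′ ends, and the arithmetic value for 2 single 3′ ends was 22.6%, 40.2%, 29.1% and 30.8%. With all peaks the tail-to-tail share was thus above that value in both replicate 2 libraries and below it in both replicate 1 libraries.

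**Figure D1:**
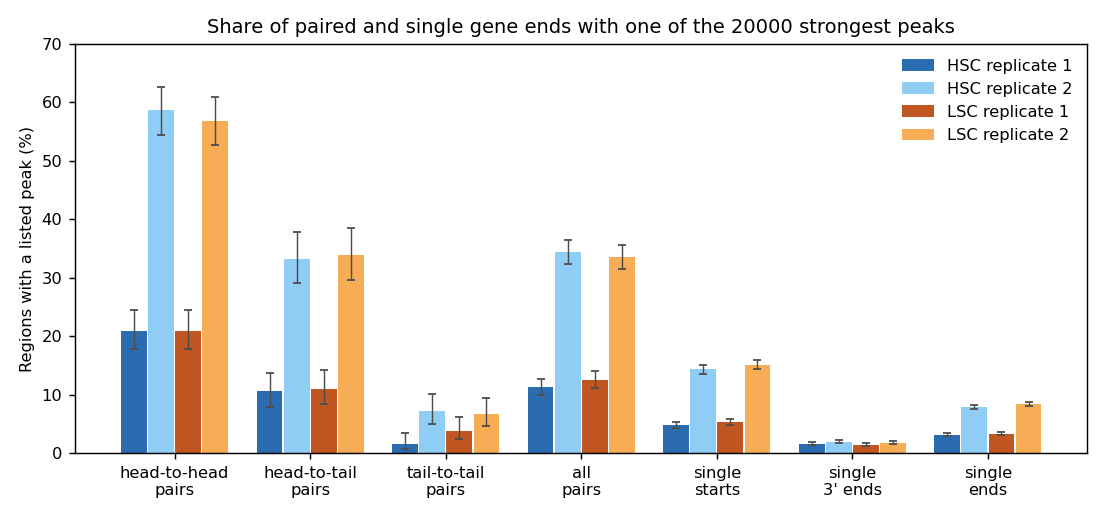
Bars give the share (%) of regions with at least 1 of the 20000 strongest peaks, by class of paired or single gene end and by library; error bars are Wilson 95% intervals, which cover counting error only. In each library head-to-head pairs stand highest (21.0%, 58.7%, 21.0% and 56.9%) and tail-to-tail pairs lowest of the paired classes, and replicate 2 of both cell types stands above replicate 1.

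Listed peaks had a higher median fold at head-to-head pairs than at single starts in each library, a description with no test. The authors' fold, the pileup at a peak's summit over the background of its own library, had medians of 41.3, 25.1, 57.2 and 38.3 at listed head-to-head pairs. At listed single starts the medians were 35.0, 19.3, 50.5 and 28.2, and over all 20000 listed peaks they were 32.3, 15.2, 40.6 and 22.0. Folds are each library's own and show no difference between libraries. The fold given for a pair is that of the strongest peak overlapping its region, and that peak's summit can lie outside the region. The strongest peaks at listed tail-to-tail pairs had medians of 39.6, 16.4, 44.1 and 25.9, near those of all listed peaks in every library except HSC replicate 1, where there were 7 such pairs. A head-to-head region almost always held a single listed peak: 115 of 116, 320 of 324, 113 of 116 and 309 of 314 did. The peak covered the whole gap in 48.3%, 76.9%, 45.7% and 77.1% of them, with a median peak length of 524, 1190, 476 and 1100 bp.

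The distance between both starts was graded next. A start with a head-to-head neighbour within 100 bp had a listed peak within 500 bp in 16.5%, 51.6%, 15.9% and 51.4% of 552 starts. The share was highest for gaps of 251 to 500 bp in 3 libraries, at 77.2% (HSC replicate 2), 32.7% (LSC replicate 1) and 71.6% (LSC replicate 2). In HSC replicate 1 it was 23.5% there and 26.3% for gaps of 101 to 250 bp, with overlapping intervals. It was 47.6% in both replicate 2 libraries at 501 to 1000 bp, and 23.0% and 24.8% at 2001 to 5000 bp. Single starts read the same way had 4.45%, 13.9%, 4.95% and 14.7%. In every library the share was lower in each successive bin from 251 to 500 bp up to 2001 to 5000 bp. With the neighbour over 5 kb and up to 20000 bp away, the share was 7.24%, 21.6%, 8.3% and 22.7%. That was above the preceding bin in LSC replicate 1 (6.44%) and below it in the other libraries. The share was still above that of single starts in every library. Both starts of a close pair usually see the same peak, so the starts within a bin are not independent.

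**Figure D2:**
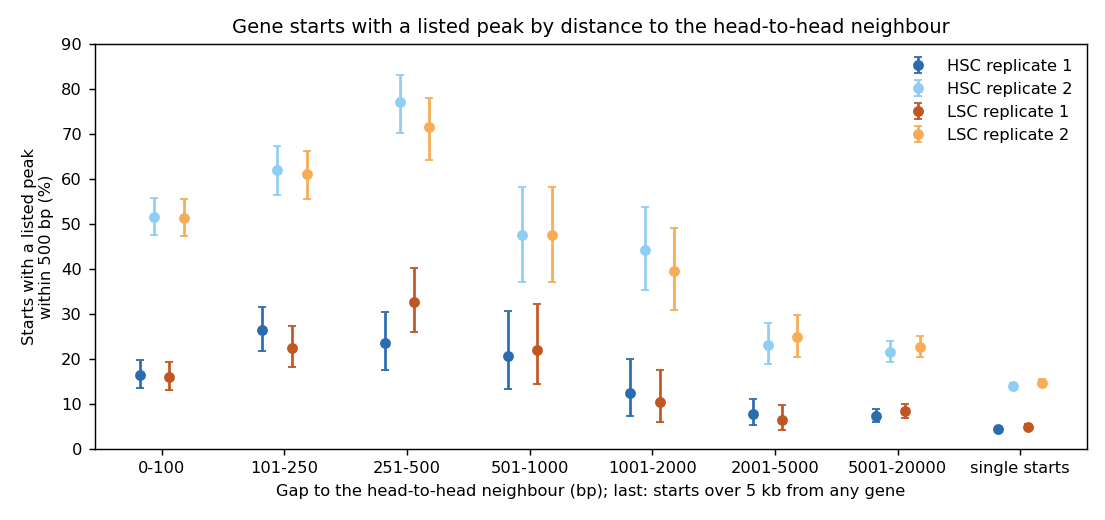
Points give the share (%) of gene starts with a listed peak within 500 bp, by the gap (bp) to the head-to-head neighbour and by library; bars are Wilson 95% intervals for counting error. In HSC replicate 2 the share is 51.6% at 0 to 100 bp, 77.2% at 251 to 500 bp, 23.0% at 2001 to 5000 bp and 13.9% at single starts.

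Summits, the positions of highest pileup, were measured from the middle of listed head-to-head pairs. Their median distance to the centre of the gap was 185, 158, 128 and 180 bp. Only peaks overlapping a region centred on the gap, of median width 1100 bp, were counted. Short distances thus follow in part from that choice, and no other class was measured beside them. The summit fell inside the gap in 25.9%, 26.9%, 31.0% and 22.0% of listed head-to-head pairs, while the gap made up 14.3%, 13.7%, 15.0% and 13.2% of the region on average. Most summits therefore lay outside the gap itself. The summit lay outside the whole region in 13 of 116, 28 of 324, 12 of 116 and 31 of 314 listed head-to-head pairs. For listed head-to-tail pairs this was 4 of 46, 39 of 145, 6 of 48 and 36 of 148. In head-to-tail pairs the summit was nearer the start than the 3′ end in 69.6%, 72.4%, 79.2% and 72.3% of listed pairs. Where the gap was at least 300 bp, so that the ends are well apart, this held in 24 of 32, 71 of 95, 29 of 38 and 75 of 101 pairs.

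**Figure D3:**
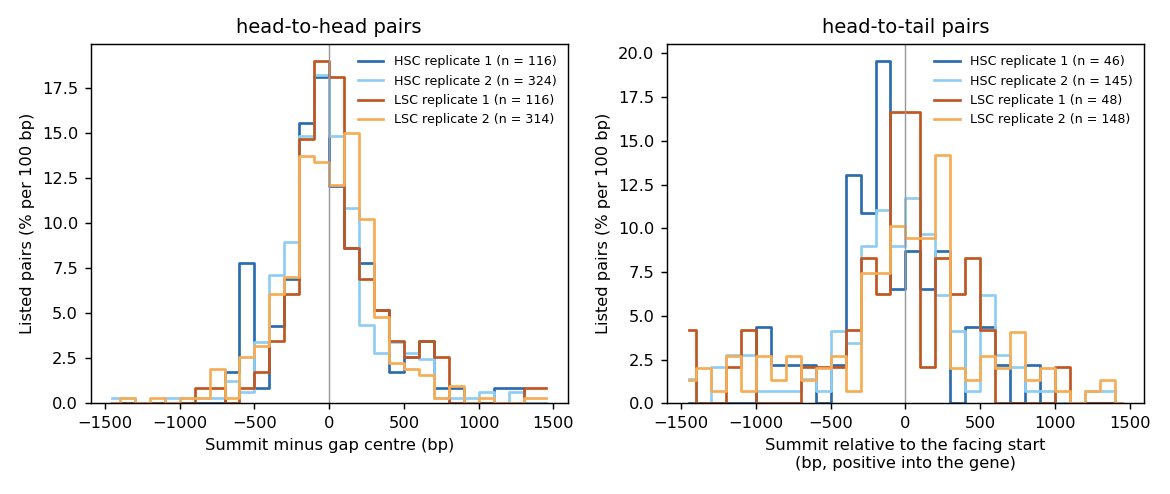
Left, distance (bp) of the summit from the centre of the gap at listed head-to-head pairs; right, distance (bp) of the summit from the facing start at listed head-to-tail pairs, positive into the gene. Each line is 1 library in bins of 100 bp, and more distant summits are not drawn. Head-to-head summits had median distances of 128 to 185 bp from the centre, among peaks chosen for overlapping the region.

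The libraries shared many pairs. HSC replicate 2 and LSC replicate 2 both listed 471 pairs, 69.6% of the 677 and 71.4% of the 660, and the peaks overlapped in 458 of them with a median summit distance of 165 bp. The replicate 1 libraries shared 101 pairs, 45.3% of the 223 and 40.9% of the 247. Of the pairs listed in HSC replicate 1, 83.9% were also listed in HSC replicate 2 and 77.1% in LSC replicate 2, so most pairs of HSC replicate 1 were also among those of both replicate 2 libraries. A peak was listed in all 4 libraries at 91 pairs (4.63%), against 0.524% of single ends. In 79 of the 91 the 4 strongest peaks shared at least 1 bp, and the summits spread over a median of 395 bp. By orientation these were 49 head-to-head pairs (8.88%, against 1.08% of single starts), 19 head-to-tail pairs (4.37%), 23 pairs with no strand and 0 of 417 tail-to-tail pairs (Wilson 95% upper limit 0.913%, against 0.0244% of single 3′ ends). At the other end, 1041 pairs (52.9%) were listed in no library, against 85.1% of single ends, and 292 (14.8%) had no peak of any strength in any library, against 43.8%. Of the head-to-head pairs, 146 (26.4%) were listed in no library and 27 (4.89%) had no peak at all, against 76% and 36.9% of single starts.

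The 10 pairs whose weakest rank over the 4 libraries was best were mostly head-to-head. The leading pair was the head-to-tail pair Eif4a1/Senp3, where the start of the translation initiation helicase Eif4a1 faces the 3′ end of the SUMO protease gene Senp3 across 686 bp; its folds were 102, 79.9, 229 and 97.6. Hdlbp/Septin2, an RNA-binding vigilin beside a septin cytoskeleton gene, had folds of 102, 101, 142 and 172 over a gap of 63 bp. Hnrnpa2b1/Cbx3, a gap of 105 bp between a splicing factor and a heterochromatin protein and a well-known CpG-rich element, had folds of 232, 90.6, 130 and 128. Those 3 pairs were far above the lowest fold among the listed peaks of each library, which was 22.7, 12.7, 28.4 and 18.2. Rnf5/Agpat1, a membrane ubiquitin ligase and a phosphatidic acid synthesis enzyme with no strand in the table, had folds of 129, 96.6, 123 and 148. Ccdc151/Prkcsh, a ciliary dynein docking gene and the beta subunit of glucosidase II in the endoplasmic reticulum, had 114, 77.9, 113 and 91.5 over a gap of 15 bp. Mrpl41/Pnpla7, a mitochondrial ribosomal protein and a lysophospholipase, had 95.1, 51.5, 104 and 56.5 over a gap of 891 bp. The gaps of these pairs ran from 15 to 891 bp, so the strongest peaks were not at the closest pairs alone. Usp5/Cdca3, a deubiquitinase and a cell cycle gene, had 84.5, 120, 101 and 179. Aasdhppt/Kbtbd3, whose first gene attaches the phosphopantetheine arm of fatty acid synthase, had 75.4, 35.9, 101 and 57.4. The summit of its peak in LSC replicate 1 lay outside the region. Ubxn6/Hdgfl2, a cofactor of the p97 ATPase and a chromatin-associated growth factor relative, had 97.6, 87.8, 97.2 and 144, and Aldh6a1/Lin52, a valine catabolism enzyme and a subunit of the DREAM cell cycle repressor, had 82.5, 64.2, 94.8 and 51.7. All 10 were chosen by rank, so their folds are a description and no test.

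**Figure D4:**
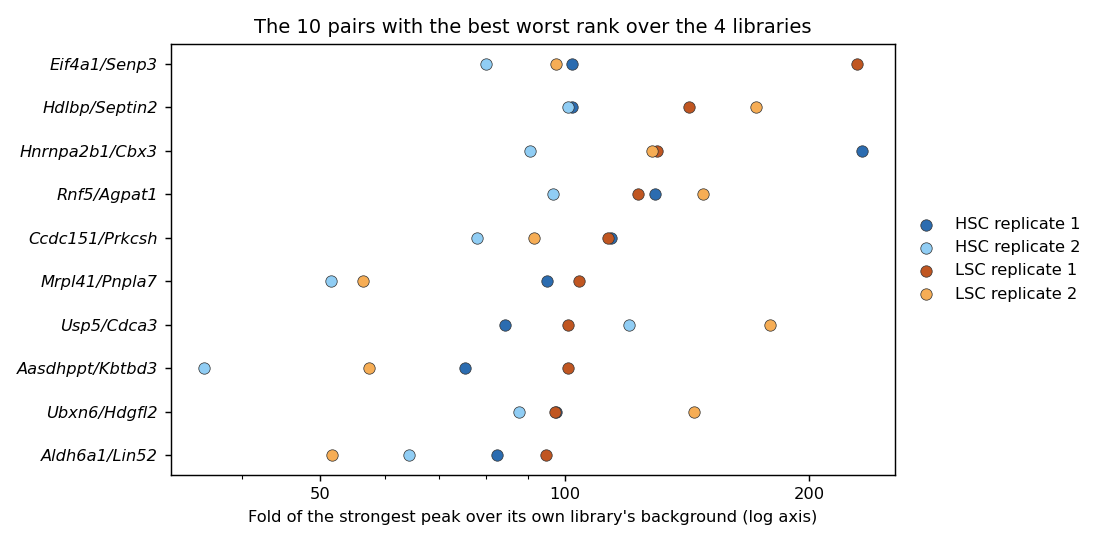
Points give the authors' fold of the strongest peak in each library (log axis) for the 10 pairs with the best weakest rank over the 4 libraries, best at the top. All points lie above 35, and the libraries change order from pair to pair.

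Functional groups of pairs were described from 20 gene lists by their counts, beside the 4.63% of all pairs listed in all 4 libraries. The lists differ in the orientation of their pairs, which was not adjusted for. By orientation, 8.88% of head-to-head, 4.37% of head-to-tail and no tail-to-tail pairs were listed in all 4 libraries. Replication-dependent histone genes, which pack newly made DNA and lie in clusters, had 24 pairs; 16, 23, 13 and 23 were listed and 10 were listed in all 4 libraries, through 8 distinct peaks because neighbouring pairs shared some. Histone genes are near-identical copies, and how reads that map to several copies were placed is not given, so single histone pairs are uncertain. H3c15/H2ac19 had folds of 38.5, 54.6, 151 and 82.6, H2ac7/H3c4 had 38.3, 23.8, 85.6 and 51.7, and H2ac11/H2bc11, whose gap is printed above, had 42.4, 52.6, 48.7 and 74.1. The summit lay outside the region at H3c15/H2ac19 and H2ac7/H3c4 in HSC replicate 2, and at H2ac11/H2bc11 in LSC replicate 2. The histone pairs listed in all 4 libraries thus included head-to-head and head-to-tail pairs.

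Genes of mitochondrial respiration formed the next group. Oxidative phosphorylation genes were in 47 pairs, of which 12, 24, 7 and 23 were listed and 6 were listed in all 4 libraries. Vmac/Ndufa11, with a complex I subunit, had folds of 53.3, 69.4, 113 and 130. Ndufaf3/Dalrd3, with a complex I assembly factor, had 46.5, 69.2, 155 and 39.8. Mrpl47/Ndufb5, which joins a mitochondrial ribosomal protein to a complex I subunit, had 46.2, 34.8, 62.6 and 40.4. Mitochondrial ribosomal proteins were in 34 pairs; 7, 16, 6 and 15 were listed and 4 were listed in all 4 libraries, among them Mrps18b/Ppp1r10 with 37.2, 114, 73.0 and 80.9. These groups had more listed pairs in both replicate 2 libraries than in replicate 1, as the pairs as a whole did.

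Splicing genes were in 35 pairs, with 6, 22, 12 and 25 listed and 4 in all 4 libraries. Beside Hnrnpa2b1/Cbx3 these included Ttc9c/Hnrnpul2 with folds of 135, 97.5, 73.9 and 158. Translation initiation and elongation genes were in 22 pairs, with 6, 12, 5 and 14 listed and 3 in all 4. Among these, Eif3k/Map4k1, an initiation factor subunit and a kinase of blood cells, had 67.8, 28.1, 39.3 and 39.6, and Ndufs1/Eef1b2, a complex I subunit and an elongation factor, had 34.4, 15.7, 35.5 and 30.7. Cytosolic ribosomal proteins were in 29 pairs, with 5, 15, 5 and 15 listed and 2 in all 4: Rps18/Vps52, also with a vesicle tethering gene, had 54.9, 17.8, 86.7 and 30.3, and Trappc4/Rps25 had 46.2, 71.5, 44.1 and 53.2. Aminoacyl-tRNA synthetases, which charge tRNAs, were in 15 pairs with 2, 7, 2 and 5 listed and 1 in all 4, Lyrm4/Fars2, with 32.3, 46.0, 60.2 and 51.2. The shares listed in all 4 libraries were 11.4%, 13.6%, 6.90% and 6.67% for these groups in turn, beside 4.63% of all pairs.

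DNA repair genes were in 52 pairs, 27 of them head-to-head, with 7, 20, 6 and 19 listed. There was 1 pair listed in all 4 libraries. That is 1.92% of these pairs, below the 4.63% of all pairs. Replication and cell cycle genes were in 20 pairs, with 2, 9, 4 and 9 listed; Pcna/Cds2, with the sliding clamp of DNA polymerases and a phosphatidylinositol synthesis enzyme, had 81.7, 40.2, 59.8 and 60.4 and was the member listed in all 4. Proteasome genes were in 21 pairs with 6, 9, 1 and 6 listed, Psme2/Rnf31 in all 4 with 56.9, 77.9, 53.6 and 105. Heat shock, chaperonin and DnaJ genes were in 32 pairs with 5, 17, 7 and 13 listed, Hspa14/Cdnf in all 4 with 36.4, 24.1, 70.5 and 20.8. Zinc finger genes with Zfp symbols were in 38 pairs with 5, 17, 5 and 13 listed and 3 in all 4: Fiz1/Zfp524 had 90.5, 82.2, 82.5 and 86.0, Zfp654/Cggbp1 had 57.4, 21.7, 85.8 and 33.0, and Zfpl1/Cdca5 had 45.6, 38.7, 69.9 and 77.3. For the groups with 1 to 3 such pairs the counts are too small to set apart from the whole.

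Genes of the complexes that contain Ruvbl2 were looked at by name. Subunits of INO80, SRCAP and TIP60/p400 were in 11 pairs; 1, 4, 0 and 3 were listed and none in all 4. Of all pairs, 11.3%, 34.4%, 12.6% and 33.6% were listed and 4.63% in all 4, so counts from 11 pairs do not set these genes apart. Utp18/Mbtd1, with a TIP60 subunit, had folds of 44.8, 15.2, 21.6 and 32.2, and was listed in every library but LSC replicate 1. Wbp1/Ino80b, with an INO80 subunit, had no peak in HSC replicate 1 and folds of 30.7, 11.5 and 38.5 in the others. That region covers the start of Wbp1 and the 3′ end of Ino80b, not the start of Ino80b. The tail-to-tail pair Rnaseh2c/Kat5, with the TIP60 acetyltransferase gene, had 15.0, 5.99 and 18.4 and no peak in LSC replicate 1. R2TP, prefoldin-like and snoRNP genes were in 6 pairs with 2, 4, 1 and 2 listed, and Fbl/Dyrk1b, with the nucleolar methyltransferase fibrillarin, was listed in all 4 with 43.7, 24.5, 63.1 and 71.6. Pno1/Wdr92, with an R2TP-associated gene, had 15.0, 21.3, 24.0 and 30.9, and Gpalpp1/Nufip1 had 25.7, 14.8 and 4.58 with no peak in LSC replicate 2. Ruvbl2 itself belonged to the tail-to-tail pair Lhb/Ruvbl2, with folds of 10.9 and 7.41 in HSC replicate 2 and LSC replicate 2, no peak in replicate 1 of either cell type, and no listed peak; the region covers its 3′ end and not its start.

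Nucleoporin genes, which build the nuclear pore, were in 11 pairs; 1, 3, 2 and 3 were listed and none in all 4. Beside the 11.3%, 34.4%, 12.6% and 33.6% of all pairs listed, and 4.63% in all 4, these counts do not set the genes apart. Aif1l/Nup214 holds the start of Nup214, the floxed gene of these mice, across 965 bp from the 3′ end of Aif1l. It had no peak in HSC replicate 1 and folds of 19.3, 39.0 and 49.6 in the others, all 3 listed. Nup88/Rpain, with the binding partner of Nup214, had 18.0, 27.0, 7.50 and 48.9 and was listed in replicate 2 only. Dolk/Nup188 had 25.4, 17.6 and 28.8 with no peak in LSC replicate 1. Ferroptosis and iron genes were in 6 pairs, 5 of them tail-to-tail, with 0, 1, 1 and 2 listed, too few to set beside the shares of all pairs. Gpx4/Sbno2, with the lipid peroxide reductase whose loss causes ferroptosis, had no peak in HSC replicate 1 and folds of 10.3, 14.8 and 19.3, and Acss2/Gss, with glutathione synthetase, had 20.8, 8.98 and 11.2 with no peak in LSC replicate 1. Both are tail-to-tail, so these regions cover 3′ ends. Sart3/Iscu, with the iron-sulphur cluster scaffold, had no peak in HSC replicate 1 and 15.2, 40.1 and 43.6 in the others.

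Pairs of genes used mainly in other tissues were few. None of 5 pairs with olfactory or vomeronasal receptors, 1 of them head-to-head, 2 head-to-tail pairs with keratins and 1 with a defensin had a listed peak in any library. Of all pairs, 52.9% had none either, so these counts do not set the genes apart. From the list of lineage and stem cell genes, the 2 pairs, both of Hox genes, were also listed in no library. Among their weaker peaks, Spag11a/Defb14 had folds of 20.5, 10.1 and 8.47 with no peak in LSC replicate 1, Hoxb5/Hoxb3 had a peak of fold 9.29 in HSC replicate 1 alone, and Hoxb8/Hoxb7 had none.

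Textbook neighbours were checked by name, and 11 of 33 looked up met the distance rule. Besides Eif4a1/Senp3 and Rps18/Vps52, Brca1/Nbr1, with the homologous recombination gene Brca1, had folds of 65.9, 33.3, 22.5 and 50.4, listed in every library but LSC replicate 1. The summits of its HSC peaks lay outside the region. Mrps12/Sars2, a mitochondrial ribosomal protein and the mitochondrial seryl-tRNA synthetase, had 44.0, 18.5, 9.52 and 29.9, and Mcm4/Prkdc, a replicative helicase subunit and a DNA repair kinase, had 11.8, 67.4, 103 and 56.8. Each was thus missing from the list of 1 replicate 1 library. Atm/Npat, a DNA damage kinase and the coactivator of histone genes, had no peak of any strength in either replicate 1 library and folds of 27.5 and 35.2 in HSC and LSC replicate 2. Psmb9/Tap1, the immunoproteasome subunit and the peptide transporter of antigen presentation, had 13.7, 19.7 and 51.2 with no peak in LSC replicate 1. Hps5/Gtf2h1, a lysosome-related organelle gene and a TFIIH subunit, had no peak in either HSC library and folds of 39.2 and 62.0 in the LSC libraries. Pfdn6/Wdr46, a prefoldin subunit and a ribosome biogenesis factor, had peaks in replicate 2 only, listed in HSC with 18.2 and not in LSC with 12.1, and Fbxl6/Slc52a2 had its single peak in LSC replicate 2 with 44.9.

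The study's comparison was of HSC with LSC. The share of pairs listed was 22.9% ± 16.3 in HSC and 23.1% ± 14.8 in LSC (mean ± SD, n = 2 each), a difference of 0.178 points that was far smaller than the spread between replicates (two-sided exact permutation p = 1.0; 2 against 2 cannot go below 0.33). Within replicate 1 LSC was higher by 1.22 points, and within replicate 2 the difference was -0.864 points. Head-to-head pairs differed by -0.906 points, with 39.9% ± 26.6 in HSC and 38.9% ± 25.4 in LSC. The libraries fell by replicate number rather than by cell type: 11.3% and 12.6% in replicate 1, 34.4% and 33.6% in replicate 2. Peak length, peak naming and the share of pairs listed moved together with the replicate number, and their part in that gap was not tested.

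Pairs listed in both LSC libraries and in neither HSC library numbered 17 (0.864%, against 0.252% of single ends), and pairs listed in both HSC libraries and in neither LSC library numbered 21 (1.07%, against 0.243%). These counts rest on single libraries: leaving out HSC replicate 2 gave 95 LSC-only pairs and leaving out LSC replicate 1 gave 177, while leaving out HSC replicate 1 gave 185 HSC-only pairs. Weaker peaks in the other cell type were common at these pairs: 3 LSC-only pairs and 3 HSC-only pairs had no peak of any strength there. Rhebl1/Dhh, a Rheb-like GTPase and a hedgehog ligand, had no peak in HSC replicate 1, 9.36 in HSC replicate 2, and 114 and 32.0 in LSC. Arfip2/Timm10b, a membrane curvature gene and a mitochondrial import chaperone, had no peak, 10.9, 60.0 and 46.6. Rom1/Eml3, a photoreceptor disc protein and a microtubule protein, had 18.6, 8.61, 52.5 and 47.6. Their HSC peaks, where present, were below the listing limit of their libraries. Tpi1/Usp5, with the glycolytic triose phosphate isomerase, had no peak, 12.4, 76.5 and 29.4, and Cenpp/Nol8, a centromere protein and a nucleolar protein, had no peak, 10.3, 47.9 and 23.1. On the HSC side, Hadha/Hadhb, which encode both subunits of the mitochondrial trifunctional protein of fatty acid oxidation, had 54.7, 21.0, 27.3 and 17.8. LSC replicate 1's fold of 27.3 there lay just under its listing limit of 28.4, and the 17.8 of LSC replicate 2 just under 18.2, so that pair sits at the edge of the call. Acad8/Thyn1, with an enzyme of valine breakdown, had 48.4, 28.1, 7.32 and no peak, and Cenpq/Mmut, with methylmalonyl-CoA mutase, had 89.7, 16.1, no peak and 17.4. B9d2/Tgfb1, where the start of the cytokine gene Tgfb1 faces the 3′ end of a ciliary gene, had 70.8, 20.4, 12.1 and 15.7, and Lrrc42/Hspb11, with an intraflagellar transport gene, had 77.9, 16.3, no peak and 12.7.

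Promoter sequence was described for what paired starts share. The RefSeq promoters (250 bases before to 50 after the start) of the 1104 head-to-head members had a median GC content of 62.0% and a CpG observed-to-expected ratio of 0.843. All 16456 protein-coding promoters had 56.7% and 0.597, and the 8217 single starts had 54.3% and 0.471. A Sp/Klf box was in 66.3% of head-to-head promoters against 47.3% of all promoters, an Nrf1 site in 20.9% against 9.19%, an Ets site in 12.6% against 5.44% and a Yy1 site in 5.89% against 1.92%. A CCAAT box was in 45.5% against 39.1%, an E-box in 10.4% against 7.97% and a CRE in 3.71% against 2.40%. A TATA box was rarer, in 5.98% against 13.5%. Among the head-to-head promoters, the median GC content was 62.3% where the pair was listed in all 4 libraries (98 promoters), 63.3% where it was listed in none (292) and 57.7% where it had no peak at all (54, a subset of those listed in none). The CpG ratio was 0.900, 0.817 and 0.708 in these sets. A Sp/Klf box was in 63.3%, 63.0% and 50.0%, the CCAAT box in 54.1%, 44.5% and 51.9%, the Ets site in 9.18%, 16.1% and 3.70%, and the Nrf1 site in 15.3%, 18.5% and 24.1%. Where the pair was listed in 1 or 2 libraries, a Sp/Klf box was in 67.3%, above the 63.3% of those listed in all 4. None of these motifs rose steadily with the number of libraries that listed the pair. Both promoters of a pair overlap, so their matches are partly the same bases.

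Because paired starts are richer in GC, starts were compared within 5 classes of promoter GC content, using 925 head-to-head and 6429 single starts whose promoter sequence lay within 100 bp of the annotated end. The difference in share with a listed peak was 29.1 points on average before and 23.4 points within classes, higher for paired starts in 4 of 4 libraries (14.0, 35.1, 12.7 and 31.7 points; exact sign-flip p = 0.13). Over the classes, the share of head-to-head starts ran from 18.3% to 30.0% in HSC replicate 1 and from 51.4% to 62.9% in HSC replicate 2, while few single starts of low GC had a listed peak. In the lowest class, under 46.3% GC, 12, 25, 7 and 22 of 40 head-to-head starts had a listed peak, against 1.40%, 1.59%, 1.21% and 1.40% of 2074 single starts. Of those 40 starts, 13 belonged to histone genes. Without them, 4, 14, 3 and 11 of 27 had a listed peak (14.8%, 51.9%, 11.1% and 40.7%). In the class of 59.7% to 66.3% GC the shares were 20.6%, 59.1%, 20.3% and 58.0% of 286 paired starts and 7.66%, 29.8%, 9.98% and 31.9% of 1032 single starts. In the highest class they were 18.3%, 51.4%, 18.3% and 50.7% of 284 paired starts. Of 994 single starts there they were 7.44%, 24.4%, 9.56% and 26.7%. The window around a paired start usually holds its neighbour's start too, and single starts were not combined arithmetically within these classes. What excess remains after allowing for GC content and the neighbour's start together was therefore not tested.

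**Figure D5:**
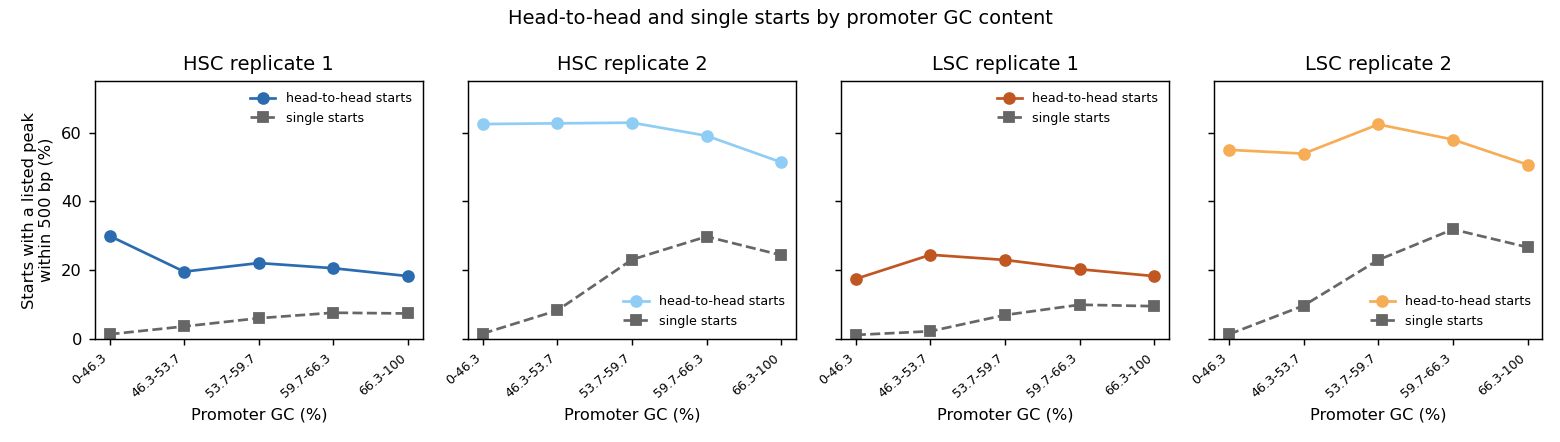
Share (%) of gene starts with a listed peak within 500 bp by promoter GC content in 5 classes, 1 panel per library; circles are head-to-head starts and squares are single starts. In HSC replicate 2, single starts rise from 1.59% to 29.8% between the lowest and the fourth class, while head-to-head starts stay between 51.4% and 62.9%.

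Further pairs were named after their values were seen. Among head-to-tail pairs listed in all 4 libraries, besides Eif4a1/Senp3 and the histone pairs, Ndufs8/Aldh3b1, with a complex I subunit, had folds of 42.6, 41.5, 93.5 and 56.5, Atp5b/Baz2a, with the catalytic subunit of ATP synthase, had 80.4, 27.7, 53.4 and 59.5, and Ppox/Usp21, with a haem synthesis enzyme, had 68.9, 38.6, 47.0 and 33.7. Tail-to-tail pairs reached at most 3 libraries, at 3 pairs. Smim27/Ndufb6, with a complex I subunit, had 68.9, 37.2, 4.39 and 48.9. H2ac21/H2ac20, a histone pair, had 34.4, 38.2 and 36.8 with no peak in LSC replicate 1, and Uba7/Inka1, with the activating enzyme of the ubiquitin-like protein Isg15, had no peak in HSC replicate 1 and 14.4, 56.0 and 36.4 in the others.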

How the data were processed

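CUT&Tag was done on 4 libraries, 2 HSC and 2 LSC. The submitters' processing notes name FastQC 0.11.5, Bowtie2 2.2.9, MACS2 and ChIPseeker, with mm10 as the build. For the last 2 tools the version, the peak threshold and any removal of duplicates were not given in the sources used here. The authors deposited 1 peak list per library, with a score, a fold (the ratio of pileup to background) and −log10 p and −log10 q values per peak, which are the authors' own and were used only to rank and describe peaks within a list. Read depth is unknown, so its precision is not known; Wilson 95% intervals cover counting error over regions, which are not replicates.

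Gene ends and promoter sequences came from RefSeq tables of GRCm38.p6, strand from the promoter table. Overlap meant at least 1 bp. Differences between classes were tested by an exact sign-flip over libraries, and cell types by an exact permutation of libraries (Python 3.11.15, scipy 1.17.1); the code was tested on simulated data. A motif for Zfp143 was also searched and is not reported: it was left out after its shares had been computed, because a run of letters of its length could not be printed here. The members, gene lists and motifs were chosen with earlier results of these data known. Pairs were named by rule: the 10 with the best weakest rank, 5 per cell type, textbook pairs, and up to 3 per gene list, predicted genes left out. Alternatives were peak number, flank, gap, window, isolation distance, leaving out each library and promoter GC classes. Some pairs that the rule names are not reported here.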

Additional observations from a re-analysis of the deposited data

How the results depend on the processing

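The excess of pairs over single ends was 17.3 points and ranged from 13.0 to 20.2 over 23 alternatives (14.2 to 20.3 leaving out 1 library); with all peaks it was 25.6 and ranged from 19.1 to 28.0. The head-to-head excess over tail-to-tail, 34.5 points, ranged from 30.5 to 36.4 (28.9 to 40.3 leaving out 1 library). The excess of head-to-head pairs over single starts was 29.1 points for starts with a promoter sequence (35.4 with all peaks). Within classes of promoter GC content it was 23.4 (27.2 with all peaks), with no allowance for the neighbour's start near each paired start. All kept their direction, and no p of this design can pass 0.05. Leaving out the histone genes, chosen after seeing the data, gave 16.6 points and 81 pairs in all 4 libraries.

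Counts moved. The 91 pairs in all 4 libraries became 60 with 10000 peaks and 246 with all peaks, and 93 to 169 when 1 library was left out (169 without HSC replicate 1, 160 without LSC replicate 1). With the summit required inside the region, 68 pairs were listed in all 4 libraries. The 17 LSC-only pairs became 69 with all peaks, 27 with gaps up to 2000 bp and 19 to 177 leaving out 1 library (53 without LSC replicate 2). The 21 HSC-only pairs became 10 with 10000 peaks, 40 with all peaks and 27 to 185 leaving out 1 library (43 without HSC replicate 2, 90 without LSC replicate 2). With all peaks, LSC-only pairs were 3.51% of pairs, against 1.96% of single ends and 2.37% of all protein-coding gene ends. HSC-only pairs were then 2.03%, near the 1.87% of single ends and the 2.12% of all protein-coding gene ends. Leaving out a library eases these calls by construction. The LSC minus HSC difference of 0.178 points reversed to -0.458 with a flank of 1000 bp and to -0.253 with gaps up to 500 bp, and ranged from -11.4 (without HSC replicate 1; -10.3 without LSC replicate 2) to 11.7; the cause was not tested.

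With the replicate number as a block the excess stayed at 17.3 points (exact p = 0.5) and the LSC minus HSC difference at 0.178 points (exact p = 1.0; 0.5 is the smallest possible). Same-numbered libraries deviated together over pairs (correlation 0.265), but the labels do not say that the number marks a shared animal or batch. The missing strand of 563 pairs, unknown read depth and the lack of a control library limit all values.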

Other observations

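Coding genes whose start faces that of a long non-coding RNA gene within 1 kb were read the same way, for coding genes in no head-to-head coding pair. There were 552 such regions, by coincidence the number of head-to-head coding pairs. A listed peak was present in 8.15%, 29.9%, 11.8% and 30.1% of them (HSC replicates 1 and 2, then LSC replicates 1 and 2), between single starts (4.82%, 14.4%, 5.39% and 15.2%) and head-to-head coding pairs (21.0%, 58.7%, 21.0% and 56.9%) in every library. In all 4 libraries 17 regions (3.08%) were listed. They included Ell/Gm51534, with a transcription elongation factor, at folds of 55.2, 43.4, 106 and 96.8, and Prmt1/Gm15545, with the main arginine methyltransferase, at 101, 39.9, 73.4 and 33.2. Calr/1700122E12Rik, with the endoplasmic reticulum chaperone calreticulin, had 111, 65.9, 53.8 and 123, and Pkm/Gm51708, with pyruvate kinase, had 43.7, 23.0, 75.4 and 35.6. Ep400/Gm15559, with the ATPase of the TIP60/p400 complex, had 25.1, 41.4, 158 and 71.8. These regions were named after their values were seen.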
